A study of Mus musculus with 4 samples.

Results

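The 10 genes described here, Pou5f1, Nanog, Zfp42, Dppa3, Dppa5a, Dppa4, Tdgf1, Lin28a, Sox2 and Esrrb, belong to the transcription network and marker set of pluripotent mouse cells. They were taken by symbol through their GENCODE vM21 Ensembl identifiers, and every promoter, 5′ UTR, exon, intron and 3′ UTR entry that carries such an identifier was used, together with CpG islands and island shores that overlap the gene body. Of the 10 genes, 9 have at least 1 entry, which gives 28 of the 79357 gene regions listed in any library, and 27 of these have a level in all 4 libraries. Another 5 of the 31796 islands and shores overlap a member, 4 of them in Esrrb and 1 at Sox2.

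Methylation was read by reduced representation bisulfite sequencing (RRBS) in C3H10T1/2, a mesenchymal stem cell line established from C3H mouse embryos. Cells carried either a non-targeting control siRNA (NC) or an siRNA against DNMT1 (siDNMT1) for 48 h, and were left uninduced or were cultured for 3 days in osteoblast (OB) medium with 50 μM ascorbic acid, 10 mM β-glycerophosphate and 0.001 μM dexamethasone. Each of the 4 conditions is 1 library of 1 cell line, so no difference below has a replicate check and no p-value was computed. No library is labelled as cultured for 3 days without OB medium. Induction therefore cannot be told apart from added time in culture or since transfection. The methylation level is 1 fraction of CpG cytosines read as methylated per region, from 0 to 1. It carries no read count, so the depth behind a level and the number of CpGs it rests on are unknown. A region was called changed where its level differed by at least 0.1 between 2 libraries, and the share of all regions past that size is given beside the count of members.

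Pluripotency is held by a small group of DNA-binding proteins, with Oct4 (encoded by Pou5f1), Sox2 and Nanog at the centre, that keep each other and many partner genes switched on. Many of these genes, though not all of them in every lineage, are turned off as the embryo differentiates. Promoter DNA methylation is a well-known part of keeping several of them off in somatic cells. DNMT1 copies methylation onto new DNA strands at replication, so cells that divide without it are known to lose methylation passively. OB cells, which make bone matrix, are formed from mesenchymal cells that left the pluripotent state long before.

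Some of these genes had heavily methylated promoters and the others stood near the middle of all promoters. Of the 10 genes, 8 have a promoter level in all 4 libraries, where the promoter is the 2 kb before the transcription start. Their mean levels over the 4 libraries ran from 0.733 at Zfp42 through 0.720 at Dppa5a, 0.717 at Pou5f1, 0.611 at Tdgf1, 0.371 at Dppa3, 0.256 at Lin28a and 0.180 at Esrrb to 0.138 at Sox2. The median of the 8 was 0.491, against 0.180 over all 20152 promoters with a level in every library. Zfp42, Dppa5a and Pou5f1 lay above 92.6%, 91.5% and 91.3% of all promoters and Tdgf1 above 83.5%. Dppa3 (64.9%), Lin28a (55.9%), Esrrb (50.0%) and Sox2 (46.1%) stood in the middle of the range. The 3 highest genes differed from each other by less than Zfp42 alone varied over its libraries (a range of 0.0360), so their order is not resolved. Sox2 was below Esrrb in each of the 4 libraries.

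**Figure D1:**
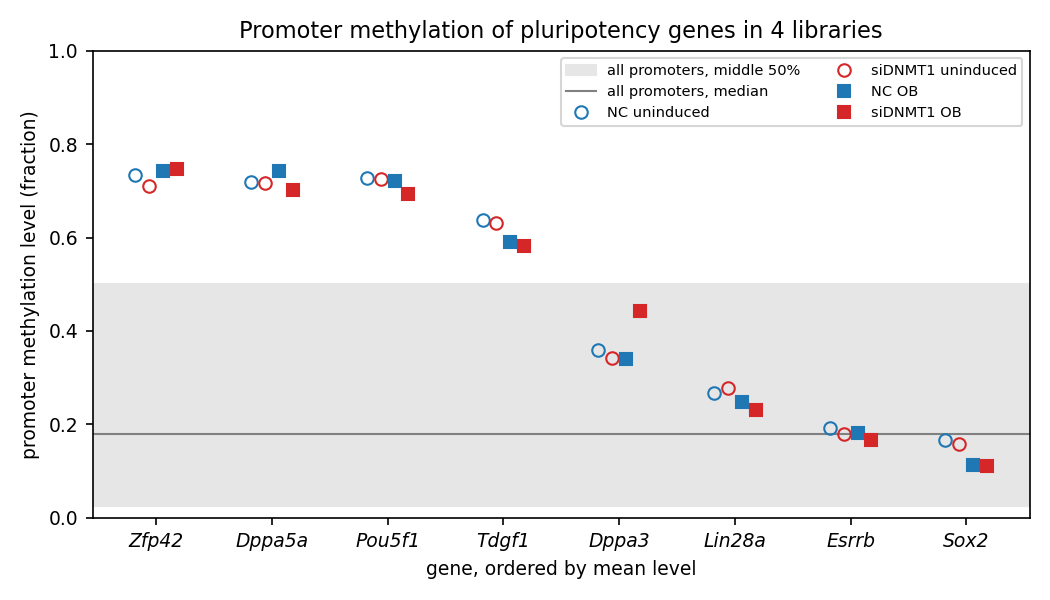
Promoter methylation level (fraction, y axis) of the 8 pluripotency genes with a promoter entry, ordered by mean; each point is 1 library, the grey band holds the middle 50% of all promoters (0.0253 to 0.50) and the line their median (0.180). Zfp42, Dppa5a, Pou5f1 and Tdgf1 lie above the band in all 4 libraries, and the siDNMT1 OB point of Dppa3 (0.442) stands off from its other 3.

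The promoter sequences differ as much as the levels do. The stretches below show the genes with the highest (Zfp42) and lowest (Sox2) promoter level, with Pou5f1 and Nanog added after the values were seen, as the network's best-known genes and because Nanog has no entry. Each is the 250 bases before the RefSeq start, on GRCm38.p6 and 5′ to 3′ on the strand of the gene. CpG dinucleotides, the kind of site at which methylation was measured, are in capitals. The levels do not show which of these CpGs were read.
Zfp42 (chr8:43307010-43307259, minus strand): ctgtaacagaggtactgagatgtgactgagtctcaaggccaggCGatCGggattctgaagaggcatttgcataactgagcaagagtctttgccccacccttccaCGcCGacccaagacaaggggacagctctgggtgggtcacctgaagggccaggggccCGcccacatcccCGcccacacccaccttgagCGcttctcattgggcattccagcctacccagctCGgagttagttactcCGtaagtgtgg
Pou5f1 (chr17:35505782-35506031, plus strand): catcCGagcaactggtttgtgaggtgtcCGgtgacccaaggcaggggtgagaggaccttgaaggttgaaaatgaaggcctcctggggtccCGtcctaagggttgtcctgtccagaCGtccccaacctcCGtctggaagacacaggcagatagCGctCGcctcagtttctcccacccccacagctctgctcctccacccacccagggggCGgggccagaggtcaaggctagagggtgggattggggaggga
Nanog (chr6:122707239-122707488, plus strand): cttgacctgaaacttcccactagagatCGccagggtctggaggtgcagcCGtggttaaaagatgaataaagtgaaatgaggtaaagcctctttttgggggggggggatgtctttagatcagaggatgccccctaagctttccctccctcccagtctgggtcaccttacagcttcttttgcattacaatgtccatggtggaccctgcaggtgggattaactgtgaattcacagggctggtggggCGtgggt
Sox2 (chr3:34649745-34649994, plus strand): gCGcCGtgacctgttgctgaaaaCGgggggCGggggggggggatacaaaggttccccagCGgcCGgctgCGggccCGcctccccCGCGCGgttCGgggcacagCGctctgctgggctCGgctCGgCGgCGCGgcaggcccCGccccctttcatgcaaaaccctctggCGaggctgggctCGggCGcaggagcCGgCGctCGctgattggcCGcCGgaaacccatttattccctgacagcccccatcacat
The Sox2 stretch holds 27 CpGs, more than 91.8% of the 27025 genes with such a sequence. Zfp42 holds 9 and Pou5f1 8, close to the median of 6.0, and Nanog holds 3. RefSeq entries were matched for 7 of the 10 genes, without Dppa3, Dppa4 and Dppa5a.

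Over the full 2 kb before the GENCODE start, the CpG observed/expected ratio (the CpG count relative to what the C and G content would give) was 0.713 at Sox2, 0.415 at Tdgf1, 0.375 at Zfp42, 0.343 at Lin28a, 0.258 at Esrrb, 0.246 at Dppa3, 0.219 at Dppa5a and 0.198 at Pou5f1. Promoters were divided into 5 equal classes of this ratio, and their median level went from 0.398 in the class poorest in CpG to 0.0270 in the richest. Pou5f1, Dppa5a, Zfp42 and Tdgf1 were highly methylated for their class. Pou5f1 lay above 90.0% of the promoters of its class and Dppa5a above 90.3%. Zfp42 lay above 90.0% and Tdgf1 above 89.9% of theirs, and the median level of the Tdgf1 class was 0.0720. Sox2 was above 74.1% of the CpG-richest promoters although its level was the lowest of the 8. Lin28a and Dppa3 stood near the middle of their classes (53.6% and 49.1%) and Esrrb below it (33.0%). In all, 6 of the 8 lay above the median of their class.

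**Figure D2:**
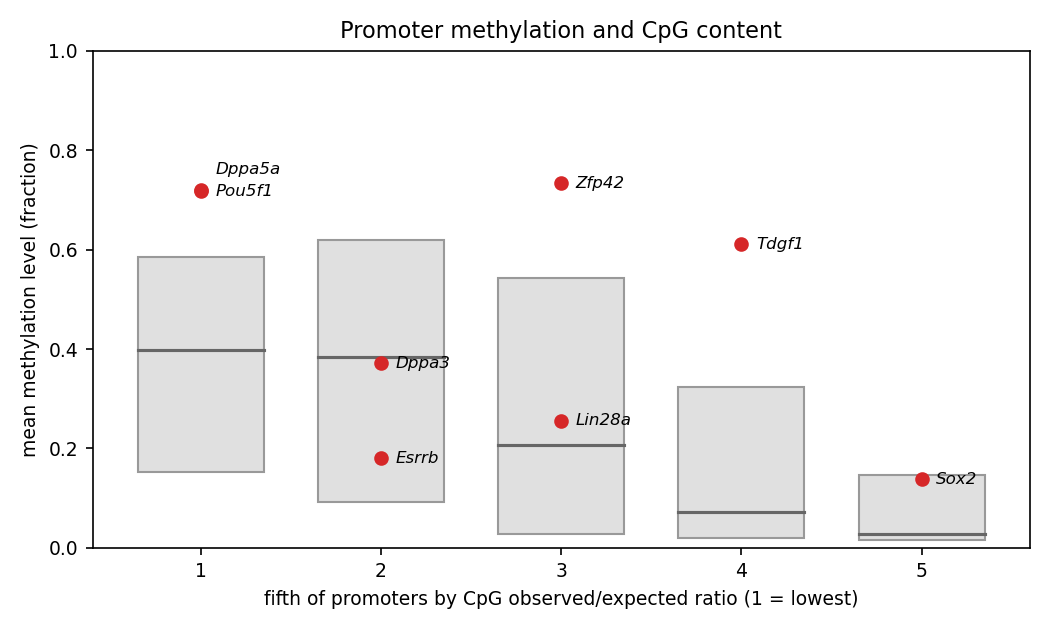
Mean promoter methylation level over the 4 libraries (y axis) in 5 equal classes of CpG observed/expected ratio (x axis, 1 is lowest). Boxes hold the middle 50% of all promoters in a class with their median as a line, and red points are the 8 pluripotency genes. Pou5f1, Dppa5a, Zfp42 and Tdgf1 stand above the box of their class, and Sox2 (0.138) is just inside the top of the CpG-richest one.

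Nanog, the homeodomain factor named for its role in self-renewal, has no entry of any class in any library (ENSMUSG00000012396, chr6:122707489-122714633, plus strand). Dppa4, a DNA-binding partner of Dppa2, has an intron entry alone. The recognition sequence of MspI, CCGG (the same on both strands), is the usual cutting site in RRBS, and the 2 kb before Nanog holds 0 of them and that before Dppa4 holds 1. Among protein-coding genes with 0 such sites 18.2% have a listed promoter and among those with 1 site 38.0%, whereas the share is 87.9% with 3 to 5 sites and 97.6% with 6 or more. Dppa3, whose promoter is listed, also has 0 sites in its 2 kb, so a missing site did not preclude an entry. The other 7 promoters hold between 2 (Dppa5a) and 12 (Sox2). Why Nanog is not listed was not tested.

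**Figure D3:**
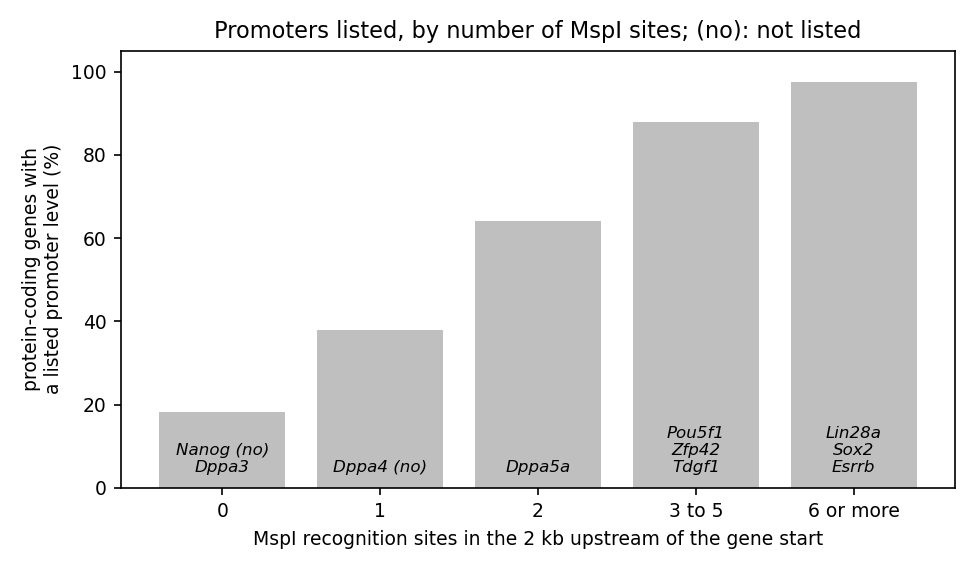
Share of protein-coding genes with a listed promoter level (percent, y axis) by the number of MspI recognition sites in the 2 kb upstream (x axis), with the pluripotency genes written in the bar of their own count. The share goes from 18.2% to 97.6%, and the genes without a promoter entry, Nanog and Dppa4, fall in the bars for 0 and 1 site.

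Pou5f1 (ENSMUSG00000024406, chr17:35506018-35510772, plus strand) encodes the POU factor Oct4 and was methylated in each of its 4 listed classes, with a mean level of 0.578 or more. Its promoter had a level of 0.728 in NC uninduced, 0.725 in siDNMT1 uninduced, 0.722 in NC OB and 0.694 in siDNMT1 OB cells, so the first 3 libraries lay together and the last was lowest. The introns repeated this, with 0.774, 0.774, 0.778 and 0.738 in the same order. The intron mean of 0.766 was higher than that of 96.2% of all intron entries, and the 5′ UTR mean of 0.618 higher than that of 94.3% of all 5′ UTRs, a class whose median was 0.0273. The 5′ UTR had 0.636, 0.622, 0.614 and 0.60, and the exons 0.593, 0.584, 0.571 and 0.563. The nearest protein-coding gene on the higher side, Tcf19, lies on the minus strand with 1962 bases between the gene bodies, and its promoter level stayed between 0.0219 and 0.0315. That is 0.691 below Pou5f1 on average, the widest gap between a member and a neighbour, and no other listed neighbour differed by 0.3 or more. The antisense gene Gm19553 overlaps Pou5f1, so the body entries cover both.

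Zfp42 and Dppa5a, both used as markers of the undifferentiated state, shared this high level. Zfp42 (Rex1, a zinc finger protein, ENSMUSG00000051176, chr8:43295063-43306980, minus strand) had a promoter level of 0.733 (NC) and 0.711 (siDNMT1) before induction, and of 0.743 and 0.747 after it. Its introns were lowest in the NC uninduced library at 0.466 and lay between 0.529 and 0.541 in the other 3. Its exons were highest in the siDNMT1 uninduced library at 0.737, with the rest between 0.676 and 0.691. Zfp42 was thus the only member with body entries higher under siDNMT1 by more than 0.05, namely by 0.0584 in exons and 0.0748 in introns before induction, below the size of a call. Dppa5a (a KH-domain protein expressed in early embryonic cells, ENSMUSG00000060461, chr9:78367052-78368177, minus strand) is listed by its promoter alone, with 0.718 (NC) and 0.717 (siDNMT1) before and 0.743 and 0.701 after induction.

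Tdgf1 and Lin28a encode proteins outside the transcription factor core, the Nodal co-receptor Cripto and an RNA-binding protein that blocks maturation of let-7 microRNAs. The Tdgf1 promoter (ENSMUSG00000032494, chr9:110939603-110946158, minus strand) had 0.637 (NC) and 0.632 (siDNMT1) in uninduced cells against 0.591 and 0.583 in OB cells. The OB minus uninduced differences, -0.0466 in NC and -0.0489 in siDNMT1 cells, were below the size of a call. Its exon and 5′ UTR entries are the same 4 values, 0.561, 0.519, 0.569 and 0.502, and siDNMT1 minus NC was -0.0424 before and -0.0666 after induction. Such identical pairs are found in 1186 of the 11484 genes listed for both classes. The Tdgf1 pair is thus 1 measurement, although both entries are kept in the region counts and medians below. Lin28a (ENSMUSG00000050966, chr4:134003330-134018841, minus strand) has an entry in every class and all 5 had their lowest level in siDNMT1 OB cells. Its 5′ UTR level was 0.324 in NC uninduced, 0.371 in siDNMT1 uninduced, 0.386 in NC OB and 0.257 in siDNMT1 OB cells. The exons followed the same order with 0.450, 0.476, 0.497 and 0.418. The 3′ UTR gave 0.60, 0.589, 0.597 and 0.540, and promoter and introns stayed below it, from 0.230 to 0.278 and from 0.166 to 0.203. The noncoding gene Gm13061 runs on the other strand of both the Lin28a body and its promoter window, so these entries are not of Lin28a alone.

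Dppa3 (Stella, ENSMUSG00000046323, chr6:122626410-122630272, plus strand) encodes a protein known to protect methylation in the zygote. Its promoter level was 0.36 in NC uninduced, 0.342 in siDNMT1 uninduced and 0.341 in NC OB cells, and 0.442 in siDNMT1 OB cells. The first 3 lay within 0.02 of each other and the fourth stood above them, the reverse of Lin28a. Its exons, which are more methylated, went the other way, with 0.641 in NC OB and 0.592 in siDNMT1 OB cells, and had 0.671 and 0.643 before induction. The introns stayed between 0.603 and 0.637. After induction the siDNMT1 difference was thus positive at the promoter and introns of Dppa3 and negative at its exons.

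Sox2 and Esrrb are the members with CpG islands. Sox2 (ENSMUSG00000074637, chr3:34650405-34652461, plus strand), the HMG-box partner of Oct4, lies inside the noncoding gene Sox2ot, and an island (chr3:34648830-34651366) with 205 CpGs covers its start. The island level was 0.351 and 0.337 in NC and siDNMT1 uninduced cells and 0.301 and 0.275 in the OB pair. The promoter, most of which is this island, had 0.167 and 0.159 and then 0.114 and 0.111, and the exons 0.424 and 0.413 and then 0.380 and 0.345. In all 3 regions both OB libraries were below both uninduced ones, and the OB minus uninduced difference lay between -0.0443 and -0.0682 within an siRNA. The exons were above the promoter by 0.2 or more in every library. The 5′ UTR of Sox2 is listed in the siDNMT1 OB library alone, at 0.40, and entered no comparison. Esrrb, an orphan nuclear receptor (ENSMUSG00000021255, chr12:86361117-86521628, plus strand), had promoter levels of 0.192, 0.179, 0.182 and 0.167 and 5′ UTR levels of 0.0837, 0.0787, 0.0847 and 0.0745. Its promoter mean stood at the middle of all promoters (50.0%), and its 5′ UTR mean of 0.0804 above 66.0% of all 5′ UTRs. Averaged over the gene, exons lay between 0.175 and 0.211, introns between 0.412 and 0.435 and the 3′ UTR at 0.533, 0.509, 0.534 and 0.480, and each class was lowest in siDNMT1 OB cells. The only listed island in Esrrb (chr12:86421660-86422902) lies 60543 bases inside the gene and had levels of 0.362, 0.362, 0.349 and 0.334. The shore on the near side of that island (chr12:86419659-86421658) was low, between 0.117 and 0.135, and the shore on its far side (chr12:86422903-86424903) was between 0.477 and 0.495. A further shore deep in the gene (chr12:86468030-86470029) stayed between 0.441 and 0.465. Dppa4 (ENSMUSG00000058550, chr16:48283733-48294237, plus strand) had an intron level of 0.280 (NC) and 0.243 (siDNMT1) before induction and of 0.253 and 0.255 after it.

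**Figure D4:**
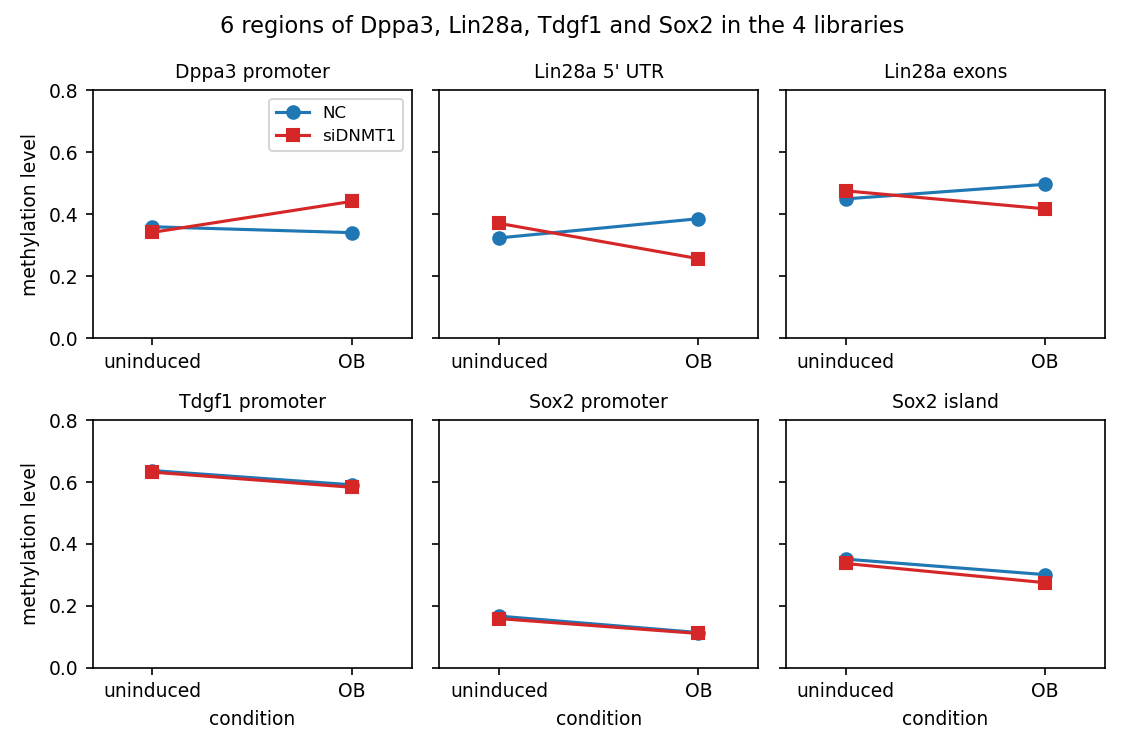
Methylation level (y axis) in uninduced and OB cells (x axis) for 6 regions, with NC in blue and siDNMT1 in red, 1 library per point. Lines cross at the Dppa3 promoter and at the 5′ UTR and exons of Lin28a, while the Tdgf1 promoter and both Sox2 regions run downward together in NC and siDNMT1 cells.

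The first question of the design is whether DNMT1 depletion changed methylation before induction. None of the 8 promoters, of the 27 gene regions or of the 5 islands and shores of these genes changed by 0.1 between NC and siDNMT1 uninduced cells. Over all features 1.48% of promoters, 1.54% of gene regions and 1.25% of islands and shores did. The largest differences were those of the Zfp42 introns (0.0748) and exons (0.0584), then 0.0477 at the Lin28a 5′ UTR and -0.0424 at the Tdgf1 exons. With siDNMT1, 7 of the 8 promoters had a lower level, beside 10718 of all 20152 promoters. The median difference was -0.00663 over the 8, against -0.000713 over all promoters. A lower level was found at 20 of the 27 gene regions (74.1%), against 55.9% of all gene regions and 62.2% of those with a mean level between 0.2 and 0.8. With each library shifted to the same median of highly methylated promoters (centred), 14 of the 27 regions and 27262 of all 76155 were lower. The member promoter median turned to 0.000445. The median of the 27 regions became -0.000509 and that of all gene regions 0.00550. The shift is the same for every region of a library, regions near zero included, so it sets part of these values.

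After 3 days of OB induction, siDNMT1 cells differed from NC cells by at least 0.1 at 2 of the 27 regions. The Dppa3 promoter was higher by 0.101 and the Lin28a 5′ UTR lower, with a difference of -0.129. This is 1 of 8 promoters and 7.41% of the gene regions, beside 2.19% of all promoters and 2.16% of all gene regions, and with so few regions a single entry decides either share. No member island or shore changed, while 1.71% of all of them did. A lower level under siDNMT1 was seen at 23 of the 27 regions and 6 of the 8 promoters, the exceptions being Zfp42 and Dppa3 among promoters and the introns of Dppa3 and Dppa4. These are 85.2% of the regions, against 66.8% of all gene regions, 75.4% of those with a mean level from 0.2 to 0.8 and 12905 of the 20152 promoters. The median difference was -0.0116 over the 8 promoters and -0.0179 over the 27 regions. The latter is more negative than the -0.00619 of all gene regions but close to the -0.0175 of gene regions with a mean level between 0.2 and 0.8. Pou5f1, Dppa5a, Tdgf1, Lin28a, Sox2 and Esrrb were lower at every region listed for them in all 4 libraries, with differences from -0.00264 (Sox2 promoter) to -0.129 (Lin28a 5′ UTR). On the logit scale, run for promoters alone with a separate cut of 0.5, the Dppa3 promoter was not past that cut. With a cut of 0.2 in level, the Dppa3 promoter and Lin28a 5′ UTR calls were both gone.

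**Figure D5:**
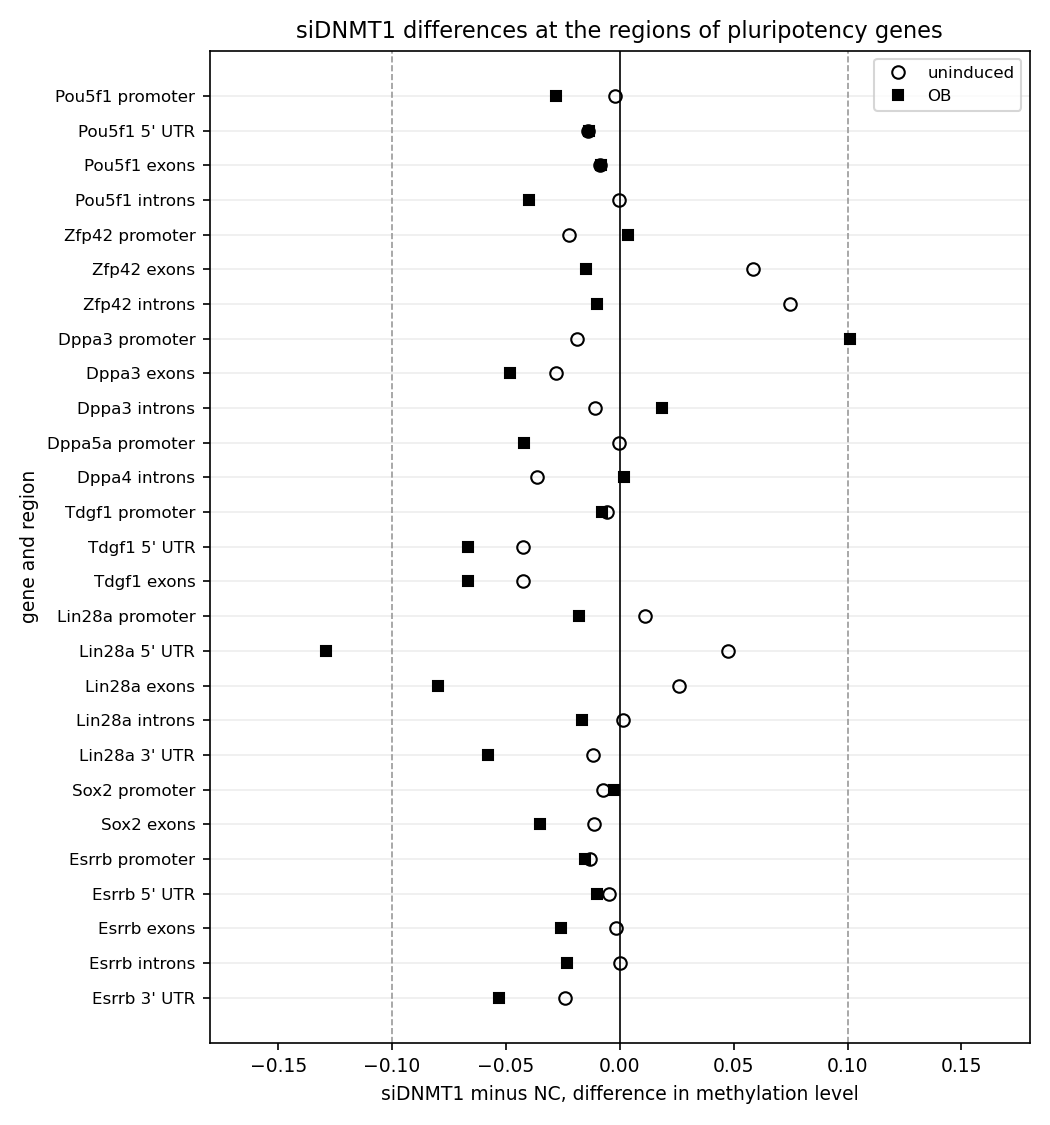
Difference in methylation level, siDNMT1 minus NC (x axis), at the 27 regions of pluripotency genes with a level in all 4 libraries (y axis), with open circles for uninduced and filled squares for OB cells and dashed lines at the size of a call (0.1). Only the OB squares of the Dppa3 promoter (0.101) and the Lin28a 5′ UTR (-0.129) reach a line, and 23 of the 27 squares (85.2%) are left of zero, as are 66.8% of all gene regions.

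The siDNMT1 OB library as a whole was lower than the others, which touches each comparison that uses it. Over highly methylated promoters (mean 0.5 or more) its median was 0.651, against 0.673 in NC OB, 0.674 in NC uninduced and 0.667 in siDNMT1 uninduced cells. It also lists the fewest gene regions (77193, the others 77949 to 78205). It gave the lowest level at 22 of the 27 member regions (81.5%), at 50.4% of all gene regions and at 57.3% of those with a mean level from 0.2 to 0.8. With the libraries centred, 13 of the 27 regions, and 21090 of all 76155, were lower with siDNMT1 in OB cells. The median difference of the member regions then became 0.00404 and that of all gene regions 0.0157. Centring takes the same value off every region of a library (-0.0229 in siDNMT1 OB cells). Regions near zero, such as many 5′ UTRs (class median 0.0273), are thereby raised as much as highly methylated ones. The centred figures over all gene regions are thus set in part by the shift, and none were computed for mid-level regions alone. The Dppa3 and Lin28a calls in that comparison held under this shift. How much of the lower level belongs to the siRNA and how much to this library cannot be told apart with 1 library per condition.

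The second question is what induction did under each siRNA. In NC cells no promoter, gene region or island of these genes changed by 0.1 between uninduced and OB cells, while 2.17% of all promoters, 2.14% of all gene regions and 2.08% of islands and shores did. The largest differences were at Zfp42 introns, 0.0727 higher in OB cells, at Lin28a 5′ UTR, 0.0623 higher, and at the Sox2 promoter with -0.0531. The median over the 8 promoters was -0.0145, against -0.00320 over all promoters. In siDNMT1 cells the Dppa3 promoter was higher by 0.10 and the Lin28a 5′ UTR lower (-0.115) after induction, again 1 of 8 promoters and 2 of 27 regions. The Lin28a difference was -0.0988 with the libraries centred, which is no longer a call. Over all features 3.36% of promoters, 3.39% of gene regions and 2.99% of islands and shores changed there, and no member island or shore did. This comparison shares the siDNMT1 OB library with the previous one, so the calls at these regions are not separate evidence. The median difference of the 27 regions was -0.0288 in siDNMT1 cells and -0.00279 in NC cells, beside -0.00800 and -0.00339 over all gene regions and -0.0181 and -0.00642 over those with a mean level from 0.2 to 0.8. With the libraries centred it was -0.0130 in siDNMT1 cells and -0.00177 in NC cells, beside 0.00783 and -0.00238 over all gene regions.

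The third question is whether the siDNMT1 difference was another in OB cells than in uninduced cells, where medium and time again go together. The siDNMT1 difference in OB cells minus that in uninduced cells was at least 0.1 in size at 3 of the 27 regions, 11.1% beside 3.71% of all gene regions, and at 1 of the 8 promoters beside 3.74% of all promoters. These were 0.120 at the Dppa3 promoter, -0.177 at the Lin28a 5′ UTR and -0.106 at the Lin28a exons. With the libraries centred, the Lin28a exons were no longer past 0.1 (-0.0908), while the Dppa3 promoter (0.135) and the Lin28a 5′ UTR (-0.162) were. The 5′ UTR lies within the exons, so the Lin28a entries can share CpGs and they are not independent. The quantity was negative at 20 of the 27 regions (74.1%), at 61.6% of all gene regions and at 65.3% of those with a mean level from 0.2 to 0.8. The share of such mid-level regions past 0.1 was not computed for this quantity. Without replicates no error can be attached to it.

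The wider network gave a broader range of levels. Of 23 further genes on a list of pluripotency factors, 18 have a promoter level, and Utf1, Gdf3, Nr0b1, Nodal and L1td1 have none in any library. Their median level was 0.334, with 13 of the 18 above the median of all promoters. Lowest were Klf5 (0.0168), Klf4 (0.0207) and Klf2 (0.0223), Krüppel-like factors that many somatic cells also use. Among the highest were Lefty1 (0.718), a secreted Nodal antagonist, and Zscan10 (0.656), a zinc finger protein. Prdm14, which represses de novo methyltransferase genes in embryonic stem cells, was the only promoter of the list past 0.1 in an siDNMT1 comparison. Its level was 0.358 in NC and 0.222 in siDNMT1 cells before induction, then 0.356 and 0.340, so the siDNMT1 uninduced library stood apart from the other 3.

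For comparison with genes of the cell type itself, 9 of 11 mesenchymal genes have a promoter level in every library. Their median was 0.299, and 5 of the 9 lay above the median of all promoters. Vim (0.0168) and Runx2 (0.0164) were nearly free of methylation, and they were the only 2 below 0.1. The same list also holds Thy1 at 0.774, above each of the 8 pluripotency promoters, so a high promoter level does not separate the lists. The 5 listed promoters of 8 genes of blood, epithelium, endothelium and liver ranged from 0.348 (Cd3e) to 0.725 (Pecam1). No expression was measured in these libraries, so neither the silence of the pluripotency genes nor the depletion of DNMT1 could be checked here. The promoters closest in pattern, by the largest difference over the 4 libraries, were Ndufa1 for Dppa3 (0.0213), Gm42692 for Sox2 (0.00924) and Rab17 for Tdgf1 (0.00790). Within 0.05 of Dppa3 in every library there were 48 promoters, of Tdgf1 526 and of Sox2 941.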

How the data were processed

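RRBS was analysed in 4 libraries of C3H10T1/2 cells, 1 per condition, grouped by the treatment label. According to the methods and the processing notes, the authors sonicated the DNA, treated it with bisulfite, filtered the reads with Trimmomatic (version 0.36) and used Bismark (version 0.16.3) for alignment to mm10. No cutting enzyme is named. They deposited 1 methylated fraction of CpG cytosines (mCG/CG) per region, or per gene and region class. The coverage minimum and the weighting of cytosines are not given in the sources used here, and depth is unknown.

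Differences were computed where all 4 libraries list a level and called from 0.1. Genes were placed with GENCODE vM21, and promoter CpG counts, island bounds and sequences came from the GRCm38.p6 reference (strain C57BL/6J, not C3H). All 14354 islands start and end with CG there once starts are counted from 0; positions are printed from 1. The authors' own gene annotation is not known. The 10 members and the gene lists were chosen with earlier results of these data known. The named genes are the members, the 3 highest and 3 lowest of 23 network genes and any past 0.1 with siDNMT1, neighbours that differ by at least 0.3, and the most similar promoter of the 3 members with the widest range. An item that this rule names is not reported here. Functions were tested on simulated data. Alternatives covered the size of a call, centring, the logit scale, the overlap of islands, the background and the CpG class. Repeats were not used. Python 3.11.15, pandas 2.3.3, numpy 2.4.6 and matplotlib 3.10.9 were used.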

Additional observations from a re-analysis of the deposited data

Results flagged for a closer look

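At 3 regions the siDNMT1 difference had opposite signs before and after OB induction and the 2 differences were at least 0.1 apart. At the Dppa3 promoter it was -0.0188 in uninduced and 0.101 in OB cells, a gap of 0.120. At the Lin28a 5′ UTR it was 0.0477 and -0.129, a gap of -0.177, and at the Lin28a exons 0.0259 and -0.0798, a gap of -0.106. With the libraries centred on their highly methylated promoters the last gap was -0.0908, under 0.1, and the other gaps were still past it. With 1 library per condition the difference between them was not tested. The siDNMT1 OB library had the lowest median of highly methylated promoters (0.651), and its part in these gaps was not tested.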

How the results depend on the processing

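Of 82 alternative values, 55 were labelled the same, 26 moved and 1 call was lost. Counts and shares were the same within 1.5 times, medians within 0.01 whatever their sign, and calls if still past 0.1. The 0.01 tolerance is wider than the uninduced siDNMT1 promoter median (-0.00663), which changed sign when centred and is still among the 55. The size of a call mattered most. From 0.05, the changed member gene regions were 2 (siDNMT1 against NC, uninduced), 7 (the same in OB cells), 3 (induction in NC cells) and 6 (induction in siDNMT1 cells), and 5 for the gap between the siDNMT1 differences. At that size 1 promoter and 1 island changed with induction in NC cells, and 1 island in siDNMT1 cells. From 0.2 none of the promoters or gene regions was changed in either comparison that had calls, and none in the gap. On the logit scale, from 0.5, 0 promoters changed in the same comparisons. Centring each library on its highly methylated promoters turned the promoter median of siDNMT1 against NC to 0.000445 before induction and to 0.0103 in OB cells, and moved that of induction in siDNMT1 cells to -0.00836. It left 1 changed gene region in the latter, where the Lin28a 5′ UTR became -0.0988. Averaged over all entries of a gene, the OB median was -0.0224. Among regions with a mean level from 0.2 to 0.8 the share of changed promoters was 2.58% and 4.18% for siDNMT1 before and after induction, and 4.06% and 6.27% for induction in NC and siDNMT1 cells. The share of changed gene regions was 3.44% after induction for siDNMT1, and 3.36% and 5.37% for induction. Leaving out the Tdgf1 5′ UTR entry, an alternative chosen after seeing the data, changed no count of regions past 0.1. Of the 26 regions then left, 19 were lower with siDNMT1 before induction and 22 in OB cells. The siDNMT1 OB library was lowest at 21 of them, and the OB median was -0.0171. Another coverage minimum was not run, since the levels carry no coverage. No paired analysis was possible because each condition is 1 library and the labels give no replicate numbers.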

Other observations

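The nearest listed CpG island to the Pou5f1 start lies 10641 bases away (chr17:35516659-35517295) and had levels of 0.0258 and 0.0315 in NC and siDNMT1 uninduced cells and 0.0219 and 0.0271 in the OB pair, the same values as the Tcf19 promoter entry. For Zfp42 the nearest listed island is 1627804 bases from the start, and for Dppa4 466466. Slc2a3, the protein-coding gene next to Nanog, had a promoter level between 0.517 and 0.555, and Dppa2, next to Dppa4, between 0.381 and 0.429.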
